A study of Arabidopsis thaliana with 6 samples.

Results

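The transcripts described here are those of the organelle genomes, the plastid and mitochondrial genes that an Arabidopsis seedling reads outside its nucleus. They were measured by the 126 probe sets of the ATH1 array whose leading numbers form its block for organelle transcripts, out of 22746 probe sets that are not Affymetrix controls. The choice of members used the probe set numbers and no measured value. In the platform annotation 82 of the 126 name 1 gene, 9 name several and 35 name none. Of those with a name, 73 lie on the plastid genome, 13 on the mitochondrial genome and 5 are nuclear loci on chromosome 2. The label of the block therefore holds for the 86 probe sets with plastid or mitochondrial names, while the 35 without a name could not be assigned to a genome.

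The seedlings were nar1-4/-, nbp35-3/- and wild type, all in the Col-0 background, with 2 arrays for each of the 3 genotypes. All were whole plants collected after 2 weeks on MS plates, at 22 °C with 16 h of light and 8 h of darkness, and no further treatment separates the groups. Neither the meaning of the sign after each allele nor the number of plants in a sample is stated. The source names of the nbp35 samples give another allele than their titles and genotypes, and the title was followed. Both arrays of a genotype are described as biological replicates, but nothing says which samples were grown together. The p-values therefore measure the spread between these samples, part of which may be technical. No probe set of the annotation used here names NAR1 or NBP35, so the mutated genes themselves could not be checked.

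NAR1 and NBP35 act in the cytosol, where they help to build iron-sulphur (Fe-S) clusters for cytosolic and nuclear proteins. Plastids and mitochondria build Fe-S clusters with machineries of their own. The plastid genome encodes core subunits of both photosystems, the cytochrome b6f complex, the ATP synthase, the NADH dehydrogenase-like (NDH) complex, the large subunit of Rubisco, an RNA polymerase and part of the plastid ribosome. The mitochondrial genome encodes subunits of the respiratory chain, factors that attach haem to cytochrome c, and part of the mitochondrial ribosome. Most organelle genes are transcribed with their neighbours into long RNAs that are then cut, spliced and edited by proteins made in the cytosol. Organelle transcripts mostly lack a stable poly(A) tail, and the labelling kit used here primes from poly(A), so the values measure whatever part of each RNA was primed.

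Levels are log2 values after RMA, a method that corrects background, gives all arrays the same distribution and summarises the probes of a set. A difference of 1 on this scale is a 2-fold difference. Values of different probe sets are not comparable with each other, so each gene is compared with itself across arrays. Array medians lay between 5.70 and 5.83 and the highest values between 13.67 and 13.84. On all 6 arrays, 28 members stayed below 3.48, the lowest first quartile of an array, as did 20.1% of all probe sets. These 28 were 22 of the 35 without a gene name, 2 of 13 mitochondrial, 2 of 5 chromosome 2 and 2 of 73 plastid probe sets. Of the members, 21 have a suffix for probes shared between transcripts, among them those for matR, nad6, ccb452 and orfX and those naming 4 of the 5 chromosome 2 loci. Chromosome 2 carries a nuclear copy of mitochondrial DNA, so signals of these sets cannot be assigned to 1 genome.

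**Figure D1:**
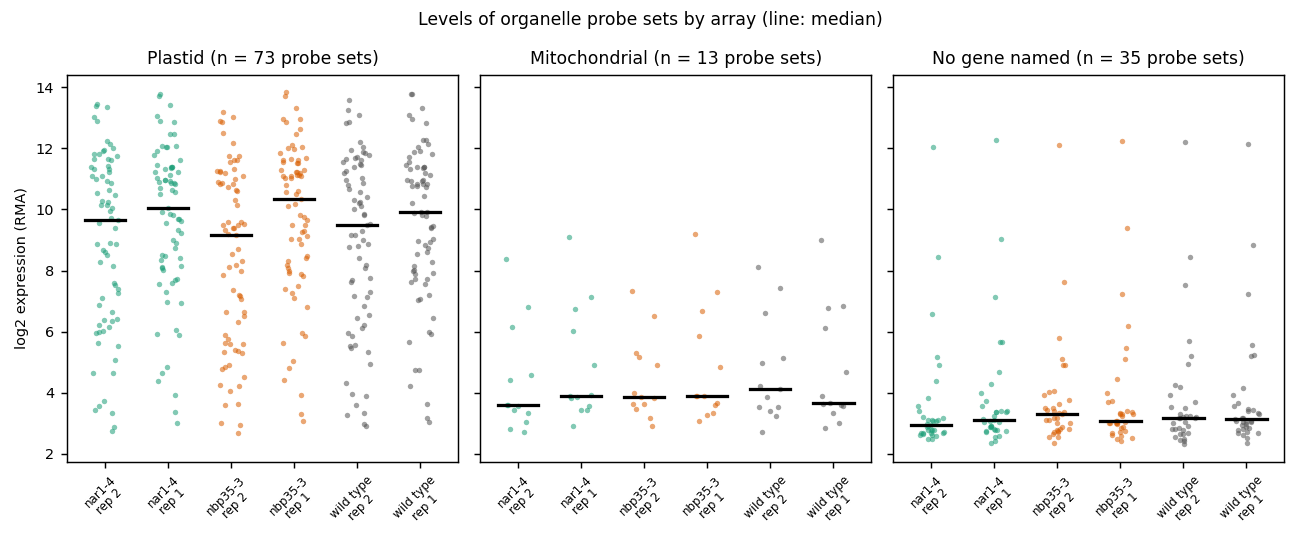
Levels (log2 RMA values) of 73 plastid, 13 mitochondrial and 35 unnamed probe sets on each of the 6 arrays, 1 point per probe set, with the median as a line. The plastid median is 9.17 on nbp35-3 replicate 2 and lies between 9.48 and 10.35 on the other arrays.

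Arrays carry a replicate number, 1 or 2, in their titles. Over all probe sets, arrays of the same number but different genotypes correlated at 0.987 to 0.994, and arrays of the same genotype but different numbers at 0.968 to 0.970. What arrays of 1 number have in common is not stated, so differences between genotypes are given as means over both numbers and also within each number, where 1 array is set against 1 array. The SEs printed for genotype differences take no account of the number, so they are wide for genes that differ between numbers. Leaf and root tissue were both measured in all samples. The leaf marker LHCB4.1, 1 of 5 leaf markers measured, lay at 12.86 to 13.17. The root marker PYK10, 1 of 3 measured of 5, lay at 11.70 to 12.17.

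The first comparison asked which organelle transcripts differ in nar1-4 seedlings. None of the 126 members was called in nar1-4 against wild type, and neither was any other probe set (0% of 22746, limma, adjusted p threshold 0.05). Without adjustment 1 member passed p under 0.05, against 0.862% of all probe sets. Plastid transcripts were centred close to wild type, with a median difference of 0.07 over 73 probe sets, from -0.25 to 0.55, beside a median of -0.01 over all probe sets. Within the numbers that median was 0.04 in number 2 and 0.12 in number 1. It was -0.22 without nar1-4 replicate 1, 0.32 without nar1-4 replicate 2, 0.29 without wild-type replicate 1 and -0.16 without wild-type replicate 2. Genotype fits without 1 array, here and below, have no term for the number. They set 1 number of a genotype against both numbers of the other, so their values also carry the difference between the numbers.

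All 13 photosystem II members had a positive mean difference in nar1-4, with a median of 0.14, and none passed the test. Of these 13, 8 were higher within both numbers and 4 were lower within number 1. All 7 photosystem I members also had positive mean differences, with a median of 0.095. Of these 7, 4 were higher within both numbers and 3 were lower within number 2. Mean differences were positive in 52 of the 73 plastid probe sets, beside 11010 of all 22746. psbN, whose product helps assemble photosystem II, had 8.29 and 8.00 in nar1-4 (replicates 2 and 1), against 7.68 and 7.71 in wild type. These groups did not overlap, and the difference was 0.45 ± 0.44 (SE, n = 2 each; adjusted p = 1). rbcL, for the large subunit of Rubisco, had 10.05 and 10.56 in nar1-4 and 9.81 and 9.91 in wild type. Its nar1-4 values were also above both wild-type values, with a difference of 0.45 ± 0.34 (SE). The 5 named members with the smallest p on the higher side were rpl33, rps18, rbcL, psbL and rps3. rpl33 and rps18 encode ribosomal proteins and are neighbours on the plastid genome. rpl33 had 10.63 and 10.64 in nar1-4, against 10.11 and 10.45 in wild type, a difference of 0.35 ± 0.19 (SE). rps18 had 9.93 and 9.81 in nar1-4, against 9.01 and 9.77 in wild type, and most of its difference of 0.48 ± 0.34 (SE) lay in number 2. The differences of psbL, for a small photosystem II subunit, and of rps3, for a small-subunit ribosomal protein, were 0.14 and 0.17.

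Other plastid groups had medians nearer to 0 in nar1-4. The ATP synthase subunits had a median of 0.03 over 6 members, and the 4 RNA polymerase subunits 0.02. The polymerase subunits differed in sign between the numbers, with a median of -0.35 in number 2 and 0.37 in number 1. rpl20, for another ribosomal protein, was lower in nar1-4 in number 2 (6.88 against 7.61) and higher in number 1 (8.50 against 8.14). petG, for a small subunit of the cytochrome b6f complex, had 5.54 and 6.95 in nar1-4, against 4.93 and 6.46 in wild type. Its difference was 0.61 in number 2 and 0.49 in number 1, and it passed the test neither without nor with the replicate block (limma adjusted p = 0.979 with it). ndhG, for a membrane subunit of the NDH complex, had 4.64 and 6.07 in nar1-4, against 3.90 and 5.99 in wild type, and again the groups overlapped.

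Mitochondrial transcripts in nar1-4 had a median difference of -0.16 over 13 probe sets, -0.49 in number 2 and 0.10 in number 1. cox2, for a subunit of cytochrome c oxidase, had 3.34 and 3.93 in nar1-4, against 4.12 and 3.57 in wild type. nad9, for a subunit of complex I, had 3.60 and 3.84 in nar1-4, against 4.21 and 3.63 in wild type. In both genes the nar1-4 array was the lower one in number 2 and the higher one in number 1. nad4L, another complex I subunit, had 3.03 and 3.57 in nar1-4, against 3.52 and 3.60 in wild type, a difference of -0.26 ± 0.29 (SE, n = 2 each). Here the groups overlapped. ccb452, which RefSeq now calls ccmFC and which serves cytochrome c maturation, had 4.57 and 4.91 in nar1-4, against 5.13 and 4.68 in wild type. Leaving out 1 array turned the sign of all 4 genes. The mitochondrial median was -0.33 without nar1-4 replicate 1, 0.08 without nar1-4 replicate 2 and 0.02 without wild-type replicate 2.

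orfX, renamed mttB in RefSeq and related to bacterial protein translocases, had 4.43 and 6.01 in nar1-4, against 4.97 and 6.13 in wild type. The probe set without a gene name 244906_at was the 1 member with an unadjusted p under 0.05 in nar1-4. It had 4.39 and 4.66 in nar1-4, against 4.94 and 5.22 in wild type, with no overlap and a difference of -0.56 ± 0.17 (SE, adjusted p = 1). 244903_at, also without a name, had 6.57 and 7.12 in nar1-4, against 7.52 and 7.23 in wild type, a difference of -0.53 ± 0.51 (SE). 244901_at had 3.22 and 3.74 in nar1-4, against 4.27 and 3.68 in wild type. AT2G07674 on chromosome 2 differed by -0.17.

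No member passed 1.5-fold in 1 direction in both numbers, as 0.699% of all probe sets did. Within number 2, 8 members were at least 1.5-fold lower in nar1-4 (2.79% of all probe sets) and 4 higher (2.77%). The 4 higher were the plastid genes rps18, ndhG, petG and psbN. The 8 lower included cox2, nad9 and nad4 of the mitochondria and rpl20 and rpoC2 of the plastid. Within number 1 there were 0 lower (1.47%) and 1 higher, rbcL (1.31%). Within number 2, 9 of 13 mitochondrial, 4 of 5 chromosome 2 and 24 of 35 unnamed members were lower in nar1-4, beside 12180 of all 22746 probe sets. Their medians were -0.49, -0.36 and -0.20. Within number 1, 10 of 13, 3 of 5 and 19 of 35 were higher in nar1-4, beside 11558 of all 22746. The medians there were 0.10, 0.02 and 0.02. These counts rest on 1 array against 1 array.

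The second comparison set nbp35-3 against wild type. Again no member and no other probe set was called (0% of 22746), and 1 member, matR, passed an unadjusted p under 0.05, against 0.611% of all probe sets. Plastid transcripts had a median difference of -0.15, which combined -0.42 in number 2 with 0.16 in number 1. Of the 73, 60 were lower in nbp35-3 in number 2, and 47 were lower in number 2 while higher in number 1. Of all 22746 probe sets, these were 11020 and 5706. In number 2, 39 of the 126 members (31.0%) were at least 1.5-fold lower in nbp35-3, 30 of them plastid, beside 4.96% of all probe sets. In number 1 the same count was 0 (1.37%). These counts rest on 1 array each, and the plastid median was 0.38 without nbp35-3 replicate 2, -0.73 without nbp35-3 replicate 1, 0.10 without wild-type replicate 1 and -0.41 without wild-type replicate 2.

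The 3 plastid genes with the most negative differences from wild type in number 2 were rpl20, ycf3 and ndhK (-1.734, -1.501 and -1.427). rpl20 had 5.88 and 8.10 in nbp35-3 (replicates 2 and 1), against 7.61 and 8.14 in wild type. ycf3, for a photosystem I assembly factor, had 7.97 and 9.76 in nbp35-3, against 9.48 and 9.42 in wild type. ndhK, for an NDH subunit that carries an Fe-S cluster, had 5.74 and 9.05 in nbp35-3, against 7.17 and 8.55 in wild type. In each of these genes replicate 2 of nbp35-3 was the lowest of the 6 arrays, while replicate 1 lay near or above the wild-type arrays. Their mean differences were -0.89 ± 0.89, -0.58 ± 0.58 and -0.47 ± 1.22 (SE, n = 2 each).

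Counts by complex followed the same division in number 2. All 6 ATP synthase members were lower in nbp35-3, with a median of -0.78, and 4 of them by at least 1.5-fold. atpF, for a stalk subunit of that enzyme and chosen after its values were seen, had 6.50 in nbp35-3 and 7.75 in wild type in number 2, and 8.47 in nbp35-3 and 7.92 in wild type in number 1. Of 14 plastid members for the ribosome, 12 were lower, with a median of -0.56. All 4 RNA polymerase members were lower, with a median of -0.64. Photosystem II members were closer to wild type, with a median of -0.09 and 8 of 13 lower. psbE, for a cytochrome b559 subunit, had 10.83 and 11.12 in nbp35-3, against 10.57 and 10.97 in wild type, and was higher within both numbers by 0.21 ± 0.20 on average (SE).

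The ribosomal protein genes rps19, rps3, rps2, rpl22 and rps4 had the smallest p among named members with lower means in nbp35-3. rps19 had 11.08 and 11.68 in nbp35-3, against 11.78 and 11.80 in wild type, a difference of -0.41 ± 0.23 (SE; adjusted p = 1). rps3 had 11.27 and 11.61 in nbp35-3, against 11.66 and 11.72 in wild type, a difference of -0.25 ± 0.17 (SE). For both, the nbp35-3 arrays lay below both wild-type arrays. rps2 had 8.18 and 9.04 in nbp35-3, against 9.31 and 8.83 in wild type, and the groups overlapped. The differences of rpl22 and rps4 were -0.25 and -0.31, and each turned positive without nbp35-3 replicate 2 (0.0039 and 0.11).

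petD, for a subunit of the cytochrome b6f complex, went the other way in number 2. It had 4.04 and 5.02 in nbp35-3, against 3.60 and 4.74 in wild type, a difference of 0.36 ± 0.60 (SE). rpl33 differed by 0.18.

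Mitochondrial transcripts in nbp35-3 had a median difference of 0.02, -0.22 in number 2 and 0.17 in number 1. matR, for a maturase that serves intron splicing, had 3.47 and 3.06 in nbp35-3, against 2.72 and 2.84 in wild type and 2.82 and 2.91 in nar1-4. Its nbp35-3 arrays lay above the other 4, at a level close to the lowest quartile of an array, and the difference from wild type was 0.49 ± 0.18 (SE, unadjusted p = 0.0463, adjusted p = 1). ccb382, which RefSeq calls ccmFN1 and which also serves cytochrome c maturation, had 7.33 and 9.21 in nbp35-3, 8.38 and 9.09 in nar1-4, and 8.12 and 8.99 in wild type. Its difference from wild type was negative in number 2 and positive in number 1. 244944_s_at, which names several mitochondrial genes, had 5.17 and 6.67 in nbp35-3, against 6.61 and 6.78 in wild type, a difference of -0.77 ± 0.53 (SE). The unnamed 244903_at had 5.80 and 7.25 in nbp35-3, against 7.52 and 7.23 in wild type, the largest negative mean difference among members without a gene name (-0.85 ± 0.51, SE). AT2G07776 and AT2G07732 on chromosome 2 differed by 0.29 and 0.10.

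Within number 2, 2 members were at least 1.5-fold higher in nbp35-3, matR and AT2G07776 (3.82% of all probe sets). Within number 1, 3 were higher (1.35%). They were the plastid genes rpoC2 and ndhJ and 1 member without a gene name, which had the largest difference (0.93). No member passed 1.5-fold in 1 direction in both numbers, against 0.4% of all probe sets.

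**Figure D2:**
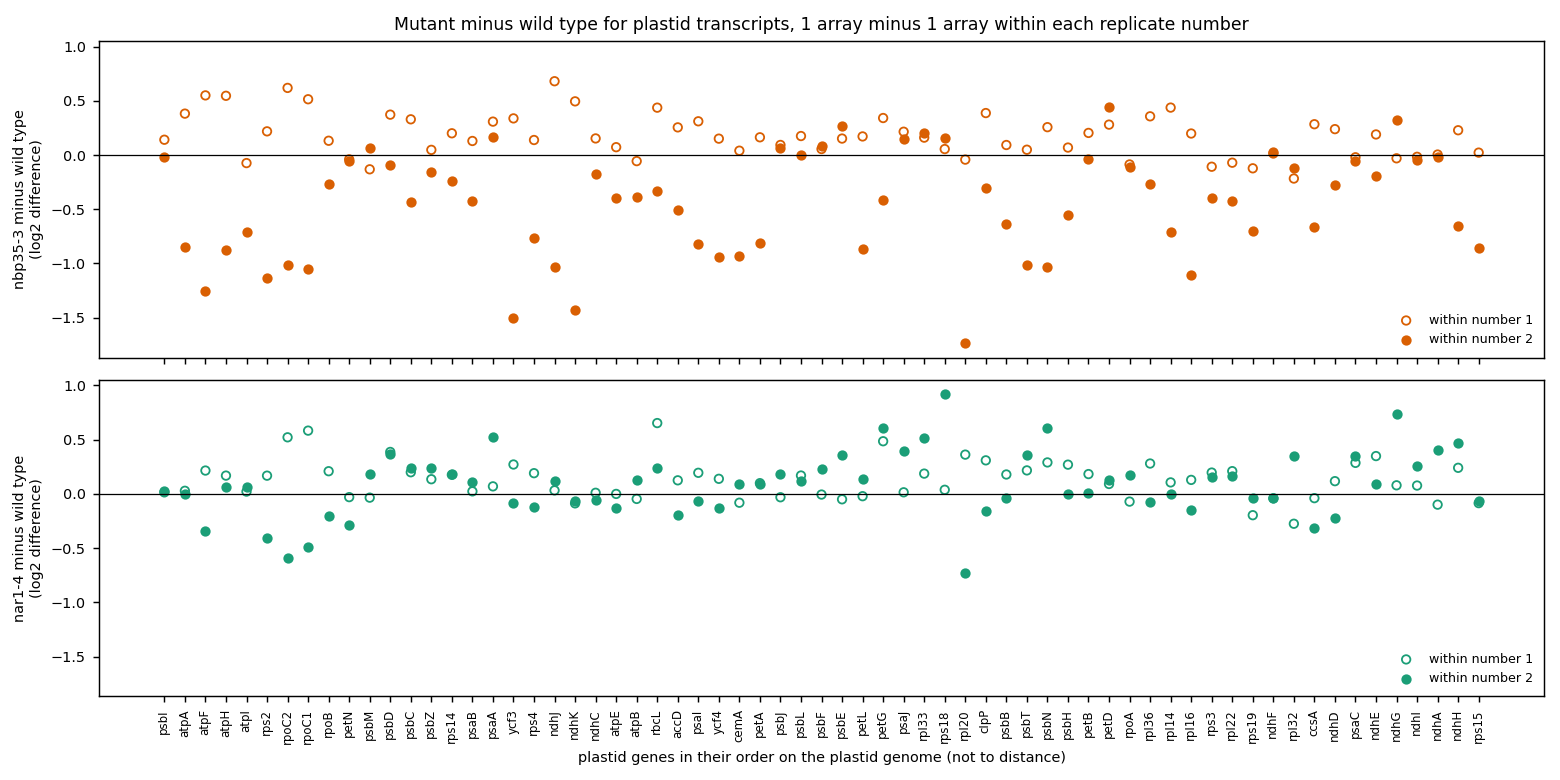
Difference of nbp35-3 (top) and nar1-4 (bottom) from wild type for 65 plastid genes in genome order, in log2 units, as 1 array minus 1 array within number 2 (filled) and number 1 (open). In nbp35-3 the filled points reach -1.73 at rpl20 while the open points stay mostly above 0. In nar1-4 both kinds lie closer to 0.

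Marker values on the same arrays moved in part with these differences. In number 2 the root markers EXPA7, EXPA18 and PYK10 had 4.75, 5.37 and 12.01 in nbp35-3, against 5.27, 5.51 and 12.14 in wild type. In number 1 they had 6.05, 6.44 and 11.80 in nbp35-3, against 5.40, 5.64 and 12.01 in wild type. EXPA7 and EXPA18 were thus lower in nbp35-3 in number 2 and higher in number 1, while PYK10 was lower in both. The seed marker M17 had 3.99 on nbp35-3 replicate 2 and 2.18 to 2.71 on the other 5 arrays, and the leaf marker LHCB4.1 had 12.98 in nbp35-3 and 12.89 in wild type in number 2. In number 1 LHCB4.1 had 12.86 in nbp35-3 and 12.98 in wild type, so it ran opposite to the plastid median. Measured markers were 3 of 5 for root, 2 of 6 for seed and embryo, 1 of 5 for leaf and 0 of 4 for flower. The part of tissue composition in the plastid values was not tested. In whole seedlings, fewer cells rich in plastids and less plastid RNA per cell cannot be told apart.

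The third comparison set the mutants against each other. No member and no other probe set was called (0% of 22746), and 1 member passed an unadjusted p under 0.05, beside 0.954% of all probe sets. That member was 244906_at, with 5.10 and 5.12 in nbp35-3, against 4.39 and 4.66 in nar1-4, and no overlap. This comparison shares its arrays with the other two, so its values restate theirs. Plastid transcripts had a median of -0.25, -0.52 in number 2 and 0.06 in number 1. Of the 73, 68 were lower in nbp35-3 in number 2, beside 10337 of all 22746 probe sets. In number 2, 36 members were at least 1.5-fold lower in nbp35-3 (4.36% of all probe sets), 31 of them plastid, and 7 were higher (3.59%), none of them plastid. The 7 higher included orfX, matR and AT2G07776. No member passed 1.5-fold in 1 direction in both numbers, against 0.629% of all probe sets.

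All 14 plastid members for the ribosome had lower means in nbp35-3 than in nar1-4, beside 10297 of all 22746 probe sets. Their median was -0.34, with -0.66 in number 2 and 0.04 in number 1. Within number 1, 9 of the 14 were higher in nbp35-3, and 5 were lower within both numbers. rps3 had 11.27 and 11.61 in nbp35-3, against 11.81 and 11.91 in nar1-4, with no overlap and a difference of -0.43 ± 0.17 (SE; unadjusted p = 0.0507, adjusted p = 1). rpl22 had 10.62 and 11.12 in nbp35-3, against 11.21 and 11.40 in nar1-4, and did not overlap either. psbN had 6.65 and 7.97 in nbp35-3, against 8.29 and 8.00 in nar1-4, the largest negative mean difference among members (-0.84 ± 0.44, SE). psbZ, for another small photosystem II subunit, differed by -0.25. Among mitochondrial genes, ccb203 (ccmFN2 in RefSeq) and nad9 were higher in mean in nbp35-3 by 0.23 and 0.22, without passing the test. The plastid median was 0.33 without nbp35-3 replicate 2, -0.78 without nbp35-3 replicate 1, 0.06 without nar1-4 replicate 1 and -0.53 without nar1-4 replicate 2.

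The largest differences among organelle transcripts lay between the numbers and not between genotypes. In a fit with terms for genotype and number, 39 of the 126 members (31.0%) were lower in number 2 than in number 1 at an adjusted p under 0.05, beside 11.2% of all probe sets. No member was higher, beside 12.3% of all probe sets. The 39 were 36 of 73 plastid, 2 of 13 mitochondrial and 1 of 5 chromosome 2 probe sets, and none of the 35 without a name. Median differences were -0.66 for plastid, -0.19 for mitochondrial and -0.01 for all probe sets. The mitochondrial median depended on the arrays used. It was -0.45 in nar1-4, -0.18 in nbp35-3 and 0.05 in wild type, and in the fit it was 0.03 without either nar1-4 array and -0.30 without either wild-type array. Without either nar1-4 array the count of members called was 21, and it lay between 33 and 40 without any of the other arrays. The number is a label and no condition of the study, so this is a description of how the arrays differ.

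Plastid transcripts were lower in number 2 in each genotype, with medians of -1.06 in nbp35-3, -0.60 in nar1-4 and -0.40 in wild type. At least a 2-fold lower value in all 3 genotypes was seen for 18 members, all plastid, beside 0.936% of all probe sets. The same fold in the higher direction was seen for 0 members, beside 2.08%. In 44 of the 73 plastid probe sets (60.3%) every number 2 array lay below every number 1 array, as in 22.3% of all probe sets. The array nbp35-3 replicate 2 was the lowest of the 6 for 57 of 73 (78.1%), as it was for 15.7% of all probe sets. The difference between numbers was most negative in nbp35-3 for 61 of the 73, in wild type for 9 and in nar1-4 for 3. The 61 rest on that same nbp35-3 array, so they largely restate the count before. Whether genotypes differ in it could not be tested, because 1 array per genotype and number leaves no replicate.

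Photosystem I genes were lower in number 2 almost throughout, with 6 of 7 called and a median of -1.18. Of all probe sets, 11.2% were called lower. psaA, for a reaction centre protein of photosystem I, had 5.98, 5.62 and 5.45 on the number 2 arrays of nar1-4, nbp35-3 and wild type, against 8.07, 8.31 and 8.00 on the number 1 arrays. The difference was -2.44 ± 0.14 (SE, n = 3 each), with an adjusted p of 0.00129. psaC, for the subunit that holds the terminal Fe-S clusters of photosystem I, had 4.66, 4.25 and 4.31 in number 2, against 5.94, 5.63 and 5.65 in number 1 (adjusted p = 0.00164). In both genes the numbers were wide apart and the genotypes within a number close together. ycf4, for an assembly factor, was lower by 4.53-fold in number 2 (adjusted p = 0.00326). ycf3 was not called, with a difference of -0.68 that came mainly from nbp35-3.

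The NDH complex divided into members with large and with small differences. ndhE, for a membrane subunit, showed the largest difference among members. It had 5.61, 5.33 and 5.53 on the number 2 arrays of nar1-4, nbp35-3 and wild type, against 8.34, 8.18 and 7.99 on the number 1 arrays, a difference of -2.68 ± 0.11 (SE, adjusted p = 0.000878). Every number 2 value lay more than 2 units below every number 1 value. ndhG was lower by 3.36-fold and ndhK by 4.04-fold in number 2 (adjusted p = 0.00224 and 0.0192). By contrast ndhI, ndhA, ndhF and ndhC were not called and differed by -0.20, -0.15, -0.13 and 0.00. These 4 were chosen after their values were seen.

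Photosystem II also divided, with 5 of 13 (38.5%) called, beside 11.2% of all probe sets called lower, and a median of -0.28. psbD, for the D2 reaction centre protein, had 7.51, 7.06 and 7.15 on the number 2 arrays of nar1-4, nbp35-3 and wild type, against 9.32, 9.31 and 8.94 in number 1. Its difference was -1.95 ± 0.13 (SE, adjusted p = 0.00153). psbT, for a small subunit, had 6.21, 4.84 and 5.85 in number 2, against 8.10, 7.93 and 7.88 in number 1. These groups did not overlap, and nbp35-3 was the lowest array. psbI, for another small subunit, was the plastid member with the smallest p on the higher side, with 11.66, 11.62 and 11.63 in number 2, against 11.39, 11.52 and 11.37 in number 1. Its difference of 0.21 did not pass the test (adjusted p = 0.188).

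Other complexes were mostly lower. Of the cytochrome b6f members 5 of 6 were called, beside 11.2% of all probe sets called lower, petB being the exception at -0.19. petG was lower by 3.36-fold and petD by 2.11-fold in number 2 (adjusted p = 0.00401 and 0.00259). Of the ATP synthase members 4 of 6 were called, among them atpI, for a membrane subunit, which was lower by 3.17-fold (adjusted p = 0.00304). accD, for a subunit of acetyl-CoA carboxylase in fatty acid synthesis, had 6.63, 6.31 and 6.82 in number 2, against 8.73, 8.86 and 8.60 in number 1 (difference -2.14 ± 0.16, SE; adjusted p = 0.00177). rbcL, beside accD on the genome, differed by -0.49 and was not called (adjusted p = 0.082).

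Genes of the plastid's own expression machinery had smaller medians than the photosystem I or NDH genes. The 14 named ribosome members had a median of -0.29. Of these, 4 (28.6%) were called, all of them lower, beside 11.2% of all probe sets called lower. rpl20 was the largest, with 6.88, 5.88 and 7.61 in number 2 (nar1-4, nbp35-3, wild type), against 8.50, 8.10 and 8.14 in number 1. Of the 4 RNA polymerase members 1, rpoB, was called. rpoC2 had 7.60 in number 2 and 7.74 in number 1 in nar1-4, 7.17 and 7.83 in nbp35-3, yet 8.19 and 7.21 in wild type, so its direction differed between genotypes. clpP, for a protease subunit, and ccsA, for haem attachment to plastid cytochromes, differed by -0.28 and -0.38 and were not called.

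**Figure D3:**
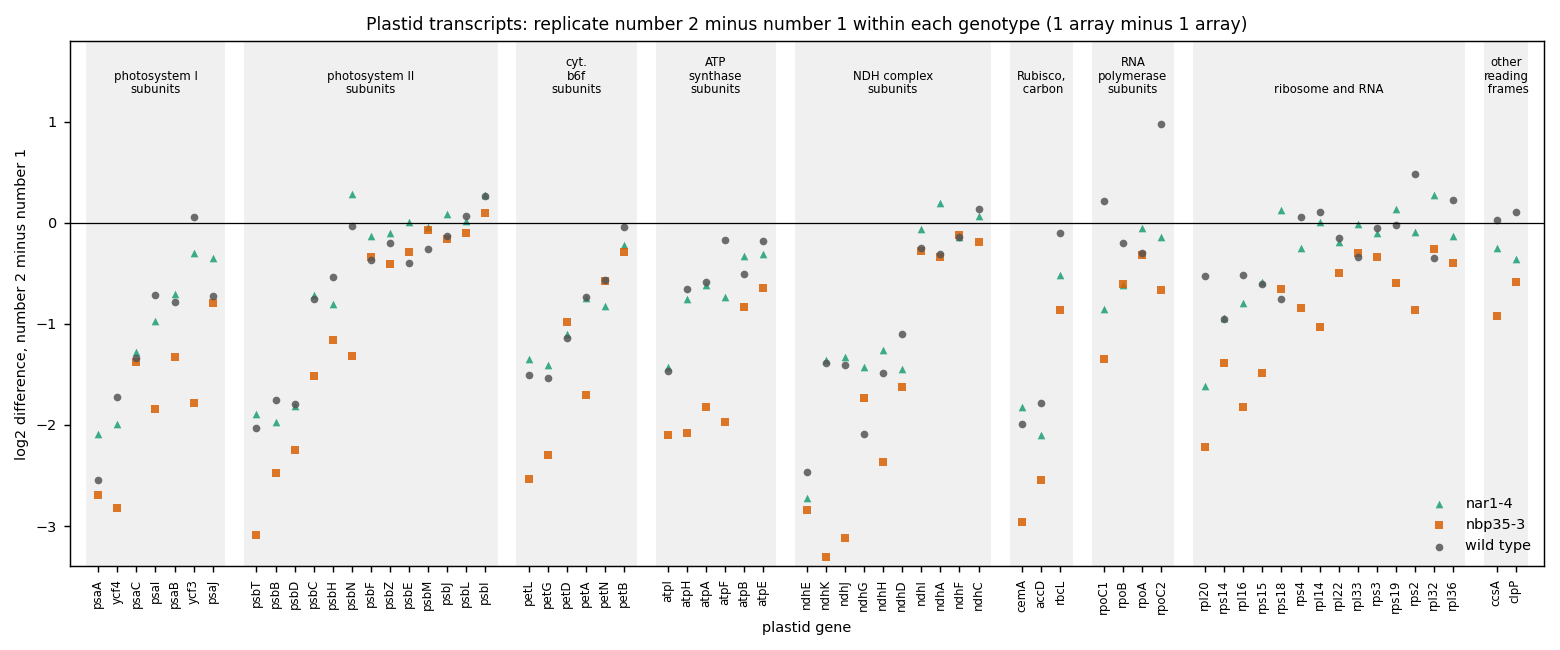
Number 2 minus number 1 (log2 difference, 1 array minus 1 array) for 65 plastid genes, grouped by complex, with 1 symbol per genotype. ndhE lies near -2.7 in all 3 genotypes, while genes such as psbI and ndhC lie near 0, and nbp35-3 (squares) is most often the lowest symbol.

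Neighbouring genes, most of them known to be transcribed together, did not share 1 difference. In the region of psbB, 6 genes ranged from -2.34 (psbT) to -0.19 (petB), with 4 called. In the unit of ndhD and psaC, 8 genes ranged from -2.68 to -0.15, with 6 called. The 4 genes of the psbE unit ranged from -0.28 to -0.01, with 0 called. In the unit of psaA, 3 genes ranged from -2.44 to -0.94, all called, and in the region of rbcL and accD, 6 genes ranged from -2.26 to -0.49, with 5 called. Of all probe sets, 11.2% were called lower. These units and regions were written from general knowledge after the values were seen and were not tested.

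Plastid members were also grouped by their mean level over the 6 arrays, which depends on the probes of a set as well as on the RNA. That mean includes the number 2 values compared here. A large drop in number 2 thus also lowers the level of a member, and part of the order is built in. Those with a mean level of 5 to 7 had a median difference of -1.75 and all 12 were called. Those at 7 to 9 had -1.31 (7 of 12 called), those at 9 to 11 had -0.75 (11 of 20 called) and those at 11 and over had -0.20 (2 of 23 called). Of all probe sets, 11.2% were called lower. From 5 upward the medians thus became less negative with each step in level. The 6 members under 5, with a median of -0.75 and 4 called, lay outside that order.

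**Figure D4:**
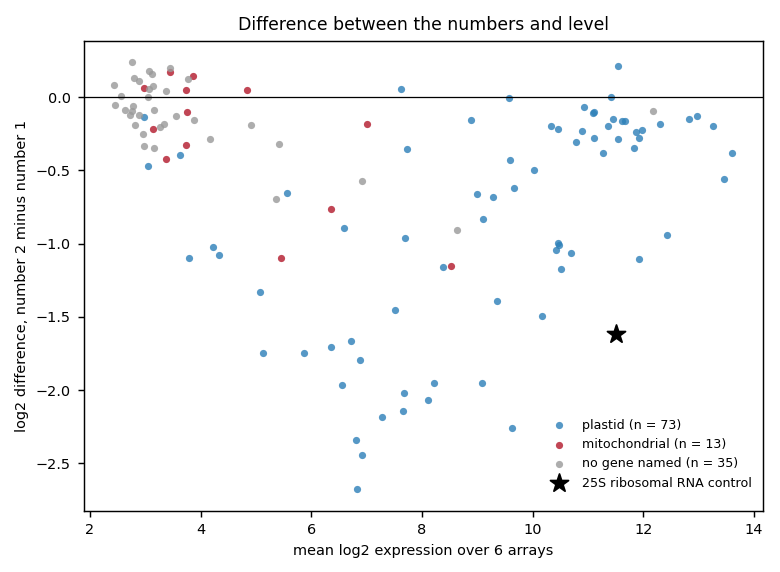
Difference between numbers (number 2 minus number 1, log2) against mean level over 6 arrays (log2) for 73 plastid, 13 mitochondrial and 35 unnamed members, 1 point each, with the 25S ribosomal RNA control as a star. The most negative plastid members lie in the middle of the level range, and the star lies at -1.62.

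Controls on the arrays differed between the numbers too. The cytosolic 25S ribosomal RNA control had 11.01, 10.56 and 10.52 on the number 2 arrays of nar1-4, nbp35-3 and wild type, against 12.43, 12.32 and 12.19 on the number 1 arrays. The 18 hybridisation spikes averaged 10.65 in number 2 and 9.19 in number 1, while the 24 polyadenylated spikes averaged 4.78 in number 2 and 4.76 in number 1. Single polyadenylated spikes moved both ways between the numbers, from -0.76 to 1.09. On nbp35-3 replicate 2 the polyadenylated spikes averaged 4.59, against 4.71 to 4.98 on the other arrays, and the hybridisation spikes had their highest mean, 10.82. RNA quality, read as the signal at the 3′ end less that at the 5′ end, was 1.76 in number 2 and 1.67 in number 1 for actin, and 1.42 in number 2 and 1.48 in number 1 for GAPDH. By these probe sets wild-type replicate 2, from which both mutants are subtracted in number 2, had 1.96 for actin. The other 5 arrays had 1.60 to 1.72. For GAPDH wild-type replicate 2 had 1.57, against 1.33 in nar1-4 and 1.36 in nbp35-3 in number 2. The GAPDH values came from the first series of control probe sets and the actin values from a later one. By the first series, actin gave 3.82 on wild-type replicate 2, 3.75 on wild-type replicate 1 and 3.73 on nar1-4 replicate 2. There nbp35-3 replicate 2 was lowest, at 3.34. Which array stood apart thus depended on the control probe sets used. Labelled RNA was made from 250 ng of RNA, or 200 ng in 3 samples whose codes are not tied to a genotype or number. The part of these in the organelle values was not tested. Relative to the 25S control, the plastid median difference between numbers was 0.96, a comparison added after the data were seen.

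Among mitochondrial probe sets, 2 of 13 (15.4%) were called, both lower in number 2, near the 11.2% of all probe sets called lower. In 5 of the 13 every number 2 array lay below every number 1 array, as in 22.3% of all probe sets. The 2 called were ccb382 and orfX. In number 2 (nar1-4, nbp35-3, wild type) ccb382 had 8.38, 7.33 and 8.12, against 9.09, 9.21 and 8.99 in number 1. orfX had 4.43, 5.28 and 4.97, against 6.01, 5.85 and 6.13. Neither overlapped between numbers, and their adjusted p-values were 0.0223 and 0.0149. The 5 complex I members had a median of -0.22 and none was called. nad4 had 6.82, 6.50 and 7.41 in number 2, against 7.13, 7.30 and 6.85 in number 1, so wild type was the higher one in number 2. nad9, ccb206 (ccmB in RefSeq) and matR differed by 0.15, 0.17 and 0.07. Of the chromosome 2 loci, AT2G07708, chosen after its values were seen, was called at -1.42 (adjusted p = 0.00919).

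**Figure D5:**
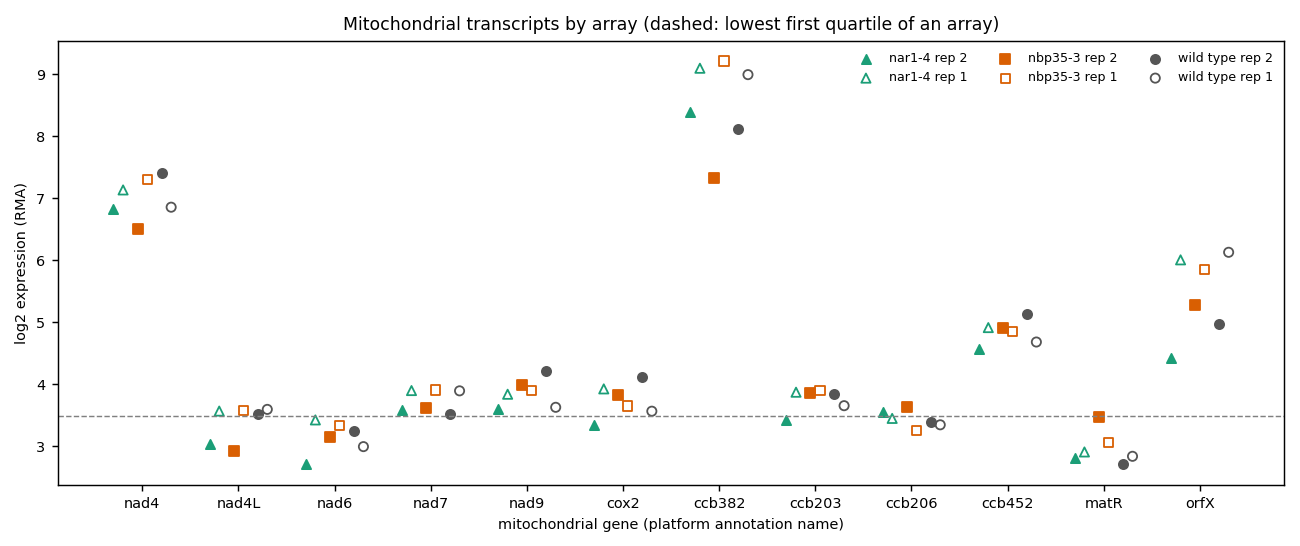
Levels (log2 RMA values) of 12 mitochondrial genes on the 6 arrays, with filled symbols for replicate 2 and open symbols for replicate 1. The dashed line at 3.48 is the lowest first quartile of an array. ccb382 and orfX, the genes called between numbers, separate by number but are not the only ones. Most other genes lie near the line.

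Plastid genes whose products carry Fe-S clusters were looked at as a set after their values were seen. They are psaA, psaB and psaC of photosystem I and ndhI and ndhK of the NDH complex. Mean differences of nbp35-3 from wild type were 0.24, -0.15, -0.04, -0.03 and -0.47, and those of nar1-4 were 0.30, 0.07, 0.32, 0.17 and -0.07. None passed the test.

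Nuclear genes that serve the organelles were measured in small numbers. Of lists for organelle RNA processing, the respiratory chain, the mitochondrial retrograde response, photosynthesis and plastid gene regulation, 12, 7, 3, 12 and 1 genes had a probe set of their own. The lists for organelle transcription and for nuclear-encoded organelle ribosomes had 0 measured. None of these 35 genes was called between genotypes. Between numbers, 3 of 12 organelle RNA processing genes were called higher in number 2, beside 12.3% of all probe sets, and the list median was 0.07. CRR21, CRR28 and OTP85, pentatricopeptide repeat proteins of plastid RNA editing, were higher by 0.69, 0.62 and 0.74.

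Nuclear photosynthesis genes had a median of 0.17 between the numbers over 12 genes. Of these, 2 were called higher (12.3% of all probe sets) and 1 lower (11.2%) in number 2. ATPC1, for the nuclear-encoded gamma subunit of the plastid ATP synthase, was higher by 0.48, and NdhN, a nuclear-encoded NDH subunit, by 0.59. LHCB4.3, for a light-harvesting protein of photosystem II, was lower, with 6.86, 6.29 and 6.61 in number 2 (nar1-4, nbp35-3, wild type), against 8.71, 9.42 and 9.17 in number 1. Of 7 respiratory chain genes, CYTC-2 for cytochrome c was higher by 0.93, and SDH1-2 and SDH2-2 of succinate dehydrogenase were lower by 0.50 and 0.47 on the log2 scale. NDB4, an external NADH dehydrogenase of mitochondria, had 4.78 and 4.51 in nar1-4, 3.44 and 4.14 in nbp35-3, and 3.83 and 3.97 in wild type. Its nar1-4 arrays lay above the other 4, with an unadjusted p of 0.041 against wild type and an adjusted p of 1.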

How the data were processed

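Biotin-labelled cRNA was made from total RNA with a 3′ in vitro transcription kit, per the labels' protocols. The authors deposited log2 values for 22810 probe sets and 6 arrays, made with RMA per the submitters' processing notes, version not given in the sources used here. Every value column belonged to a sample (0 did not) and was used unchanged. The number of arrays limits the precision. After 64 control probe sets were set aside, 22746 were tested.

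Arrays were grouped by title. Differences were fitted in R 4.3.3 by limma 3.58.1 (lmFit, then eBayes; two-sided) with a mean for each genotype (3 residual degrees of freedom) and Benjamini-Hochberg adjustment over all 22746 probe sets at a threshold of 0.05. The numbers were compared with terms for genotype and number (2 residual degrees of freedom). An exact permutation test cannot go below p = 0.333 for 2 arrays against 2, or 0.1 for 3 against 3. Gene names came from the platform annotation, with newer symbols from the RefSeq gene table of TAIR10.1. The fit was tested on simulated data.

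Members, lists and rules were chosen with earlier results of these data known. Named genes were the 5 members with the smallest p in each direction per comparison, 2 per functional group with the largest difference in either mutant, and nad4L and ccb382. Genes without a single name are given by probe set when among the 5 with the largest difference. Of these, 244939_at was selected in both comparisons of nbp35-3 and is not described. Nuclear genes came from the lists, at most 3 each with the smallest p. Genes outside this rule were chosen after their values were seen. Alternatives were another prior, a filter on dim probe sets, quantile normalization, median centring, array weights, fits of 2 genotypes, single-name or plain-suffix probe sets, other thresholds, the replicate block and leaving out each array.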

Additional observations from a re-analysis of the deposited data

Results flagged for a closer look

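4 medians had opposite signs within the 2 replicate numbers. Each rests on 1 array per genotype and number, so the difference between the numbers was not tested. The plastid median of nbp35-3 against wild type was -0.418 in number 2 and 0.163 in number 1, and that of nbp35-3 against nar1-4 was -0.516 in number 2 and 0.058 in number 1. The mitochondrial median of nar1-4 against wild type was -0.486 in number 2 and 0.103 in number 1, and that of nbp35-3 against wild type was -0.222 in number 2 and 0.172 in number 1.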

How the results depend on the processing

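No member was called between genotypes under the other priors, filters, scalings, weights and fits, or without any 1 array, and 1 passed an unadjusted p under 0.05 in each comparison. Same-numbered arrays deviated together from the means of their genotypes, with correlations of 0.814 (nar1-4 and wild type), 0.694 (nbp35-3 and wild type) and 0.674 (nbp35-3 and nar1-4). The labels do not tie a number to a shared batch. With the replicate block, 0 members were called in each comparison, and 3, 5 and 6 passed an unadjusted p under 0.05 (1009, 1076 and 1263 of all probe sets). Leaving out 1 array at a time, the plastid median ranged from -0.22 to 0.32 for nar1-4 against wild type, from -0.73 to 0.38 for nbp35-3 against wild type and from -0.78 to 0.33 for nbp35-3 against nar1-4. The mitochondrial median of nbp35-3 against nar1-4 ranged from -0.18 to 0.31, and the count called between numbers from 21 to 40. With dim probe sets left out, the mitochondrial medians were -0.29 (nbp35-3 against wild type), -0.47 (nbp35-3 against nar1-4) and -0.76 (number 2 against number 1); these rest on fewer probe sets. Genes whose sign turned without 1 array had these ranges. Against wild type in nar1-4, nad4L ranged from -0.52 to 0.010, nad9 from -0.49 to 0.091, ccb452 from -0.39 to 0.059 and cox2 from -0.51 to 0.082. ccb452 was 0.0094 and cox2 0.065 in another such fit. In nbp35-3 against wild type, rpl22 ranged from -0.50 to 0.0039 and rps4 from -0.74 to 0.11, and against nar1-4 rps19 from -0.59 to 0.0035. Between numbers, nad9 ranged from -0.072 to 0.34 and matR from -0.11 to 0.16, and matR was -0.028 with arrays centred on the median outside the organelle block. Genotype fits without 1 array have no term for the number, so their ranges also carry the difference between the numbers. The cause was not tested further. With 2 arrays per genotype and no signal before normalization, signal over background was not measured.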
